A study of Mus musculus with 13 samples.

Results

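Immature oligodendrocytes (iOLs) from mice with a knockout of Eed, labelled EED cKO, were compared with control iOLs across all genes of the RNA count table. The comparison rests on 4 of the 13 samples of the series, 2 Eed cKO and 2 control libraries, which were chosen by their titles, and all 13549 genes of the table were tested. In both groups, oligodendrocyte precursor cells (OPCs) were taken from C57BL/6 mouse brain at postnatal day 6 and grown in DMEM-Sato medium with PDGF and NT-3, then differentiated for 2 days in culture with the thyroid hormone T3 and without PDGF. The other 5 of the 9 RNA libraries are OPCs, 2 control and 3 Eed cKO, from postnatal days 6 and 7 of the same strain. The sources used here do not give the driver of the knockout, the deleted part of Eed, or whether the 2 libraries of a group came from separate animals or cultures. The genotype label reads the same for control and knockout samples, so the group comes from the title alone.

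Polycomb repressive complex 2 (PRC2), of which EED is a part, places methyl groups on lysine 27 of histone H3 and so keeps many developmental genes silent. EED binds the methylated lysine and is needed for the activity of the catalytic subunits EZH1 and EZH2. As OPCs differentiate they leave the cell cycle, pass through a committed state marked by Gpr17, Bcas1 and Enpp6, and switch on the genes of the myelin sheath.

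Among the genes that rose were weakly expressed genes of transcription factors and cell cycle inhibitors, and among those that fell were genes of myelin and of the committed state, so the promoters of a few genes of each kind are shown first. They were chosen after the values had been seen. Each line holds the 250 bases before a RefSeq start on the gene's own strand in GRCm38.p6, the assembly that the build name mm10 stands for, with the motif CG in capitals. CG reads the same on both strands, and CGCG counts as 2 matches. Cdkn2a has separate starts for its products p16 (chr4:89282193-89282442, minus strand) and p19ARF (chr4:89294620-89294869, minus strand), and its neighbour Cdkn2b lies upstream (chr4:89311033-89311282, minus strand). Pou4f1 (chr14:104468000-104468249, minus strand) and Nkx6-1 (chr5:101664712-101664961, minus strand) encode transcription factors of sensory and of ventral neural cells, and all these genes rose. Enpp6 (chr8:46986637-46986886, plus strand), a choline phosphodiesterase gene, and Mobp (chr9:120149492-120149741, plus strand), a myelin protein gene, fell. The Enpp6 window lies inside the annotated span of the gene (chr8:46939197-47096762), and the Pou4f1 window reaches into its own (chr14:104461675-104468118). Any further starts of these genes are not shown.
Cdkn2a, p16: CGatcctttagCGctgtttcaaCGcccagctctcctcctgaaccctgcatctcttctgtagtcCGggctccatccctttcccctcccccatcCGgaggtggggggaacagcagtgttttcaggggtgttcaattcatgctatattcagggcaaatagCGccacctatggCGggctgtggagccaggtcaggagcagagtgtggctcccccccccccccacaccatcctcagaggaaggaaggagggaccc
Cdkn2a, p19ARF: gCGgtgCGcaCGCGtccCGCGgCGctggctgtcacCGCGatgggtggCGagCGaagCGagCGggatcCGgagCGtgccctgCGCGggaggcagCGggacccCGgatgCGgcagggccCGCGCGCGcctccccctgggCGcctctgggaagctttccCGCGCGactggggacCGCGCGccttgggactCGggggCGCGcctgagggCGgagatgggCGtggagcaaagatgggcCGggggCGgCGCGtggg
Cdkn2b: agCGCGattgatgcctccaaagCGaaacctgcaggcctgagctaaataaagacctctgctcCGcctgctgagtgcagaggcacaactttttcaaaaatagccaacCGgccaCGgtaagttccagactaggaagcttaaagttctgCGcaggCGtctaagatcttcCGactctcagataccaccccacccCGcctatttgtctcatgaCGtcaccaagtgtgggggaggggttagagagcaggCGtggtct
Pou4f1: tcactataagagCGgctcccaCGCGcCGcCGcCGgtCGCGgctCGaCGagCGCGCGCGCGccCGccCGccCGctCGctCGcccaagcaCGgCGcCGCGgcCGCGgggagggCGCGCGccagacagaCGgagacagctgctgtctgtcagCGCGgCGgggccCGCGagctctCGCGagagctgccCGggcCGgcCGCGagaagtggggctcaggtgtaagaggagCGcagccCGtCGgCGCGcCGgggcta
Nkx6-1: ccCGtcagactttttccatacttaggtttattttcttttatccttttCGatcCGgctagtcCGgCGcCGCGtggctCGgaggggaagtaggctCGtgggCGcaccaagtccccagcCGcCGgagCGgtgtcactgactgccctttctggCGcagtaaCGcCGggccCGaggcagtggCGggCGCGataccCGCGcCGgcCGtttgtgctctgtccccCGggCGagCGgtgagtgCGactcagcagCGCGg
Enpp6: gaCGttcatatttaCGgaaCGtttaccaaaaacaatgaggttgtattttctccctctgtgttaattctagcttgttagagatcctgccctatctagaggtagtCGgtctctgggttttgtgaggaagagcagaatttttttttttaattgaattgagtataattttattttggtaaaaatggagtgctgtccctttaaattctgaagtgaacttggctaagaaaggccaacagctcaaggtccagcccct
Mobp: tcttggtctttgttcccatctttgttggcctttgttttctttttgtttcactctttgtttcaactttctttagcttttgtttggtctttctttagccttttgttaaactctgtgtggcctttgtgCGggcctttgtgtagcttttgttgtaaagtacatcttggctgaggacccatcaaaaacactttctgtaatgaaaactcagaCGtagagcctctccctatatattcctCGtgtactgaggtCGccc

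The p16 promoter of Cdkn2a held 7 CG and the p19ARF promoter 40, against a median of 6 over all 32851 RefSeq promoters of that length, with quartiles of 2 and 16. The counts were 12 for Cdkn2b, 47 for Pou4f1 and 30 for Nkx6-1, and 4 each for Enpp6 and Mobp. At least 40 CG were present in 1.31% of all promoters, at least 47 in 0.250%, at least 30 in 5.94%, at least 12 in 33.5% and at least 7 in 46.3%, and at most 4 in 44.4%. No summary over all called genes is given, since only 73.0% of the genes that rose had a promoter in the table, under the 80% that such a check needs.

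The 4 iOL libraries held between 17899327 and 18361805 reads in genes. The first principal component carried 79.6% of their variance and separated control from Eed cKO libraries. Rank correlation over genes was 0.996 between the controls, 0.995 between the Eed cKO libraries and 0.974 to 0.977 between the groups. Levels below are CPM, counts scaled to the reads of each library in genes with TMM factors, and are not adjusted for gene length. Changes are log2 differences, Eed cKO minus control, ± their standard error, with p-values from edgeR's quasi-likelihood test over all 9 RNA libraries, adjusted over all genes by the Benjamini-Hochberg method. A gene is called, and said to rise or fall, at an adjusted p under 0.05. All 10 iOL markers were among the genes tested, with summed levels of 10586 and 10405 CPM in the controls and 3462 and 4049 CPM in the Eed cKO libraries. Astrocyte RNA was present in every library: the 5 astrocyte markers summed to 5336 and 5549 CPM in the controls and to 8062 and 10052 CPM in the Eed cKO libraries. Gfap, the intermediate filament gene of astrocytes, was at 3778 and 3655 CPM in controls and 6115 and 7938 CPM in Eed cKO libraries (log2 change of 0.92 ± 0.51, adjusted p = 0.34). It made up most of each sum. None of the 5 was called, and the log2 changes of the rest were 0.08 for Aqp4, 0.15 for Aldh1l1, 0.55 for Slc1a2 and 0.53 for Gja1. Of the markers of microglia 5 of 6, and of endothelial cells all 3, were not among the genes tested. The table holds only genes with at least 1 read in each of the 9 RNA libraries, OPCs included. The absence of these markers therefore does not give their level in iOLs. Neuron markers summed to 166 to 173 CPM in the controls and 242 to 268 CPM in the Eed cKO libraries. Xist, which silences the X chromosome in female cells, was at 34.3 and 0.555 CPM in controls and 1654 and 0.635 CPM in Eed cKO libraries, so the libraries of each group differed in it. The part of the astrocyte RNA and of the mix of sexes in the results below was not tested, and in bulk RNA fewer cells of a type and less RNA per cell cannot be told apart.

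The knocked-out gene was examined first. Eed was at 18 and 21.2 CPM in controls and 14.6 and 12.1 CPM in Eed cKO libraries. Both Eed cKO libraries lay below both controls, a 1.47-fold difference that did not pass the test (log2 change of -0.55 ± 0.18, adjusted p = 0.097), and with the spread taken from the 4 iOL libraries alone the adjusted p was 0.039. The counts cover the whole gene, so transcripts that lack a deleted exon may still be counted.

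Genes of the other core PRC2 subunits did not pass the test (log2 changes of -0.12 for Suz12 and 0.12 for Ezh2). Suz12 was at 52.1 and 54.3 CPM in controls and 48.3 and 49.9 CPM in Eed cKO libraries. The catalytic subunit gene Ezh2 was at 61.0 and 55.8 CPM in controls and 66.5 and 60.4 CPM in Eed cKO libraries. Ezh1, the second catalytic subunit gene, had a log2 change of 0.10 (adjusted p = 0.78). Of 13 PRC2 subunit genes 2 rose (0 to 1) and 0 fell. Epop, an accessory subunit gene, was at 6.76 and 6.27 CPM in controls and 19 and 15.8 CPM in Eed cKO libraries (log2 change of 1.41 ± 0.28, adjusted p = 0.013). Phf19, which encodes a Tudor protein of the complex, was at 21.0 and 19.1 CPM in controls and 33.6 and 27.3 CPM in Eed cKO libraries (log2 change of 0.60 ± 0.15, adjusted p = 0.033). In Polycomb repressive complex 1 (PRC1), which ubiquitinates histone H2A, 4 of 21 genes rose (0 in each) and 2 fell (0 in each). Bmi1 was at 58.4 and 57.4 CPM in controls and 97 and 95.7 CPM in Eed cKO libraries (log2 change of 0.73 ± 0.14, adjusted p = 0.011). Auts2 was at 18.3 and 17.8 CPM in controls and 33.6 and 34.1 CPM in Eed cKO libraries (log2 change of 0.90 ± 0.18, adjusted p = 0.014), and their Eed cKO values lay above both controls. The chromobox genes Cbx7 and Cbx2 rose by 0.90 and 0.84, while Pcgf3 and Yaf2 fell, with log2 changes of -0.50 and -0.56. Epop (iOL control 1 or 2 or Eed cKO 1, 0.093 to 0.096), Phf19 (any iOL library, 0.059 to 0.27, and OPC Eed cKO 1 or 2, 0.057 to 0.058), Bmi1 (any iOL library, 0.065 to 0.091) and Auts2 (any iOL library, 0.079 to 0.10) lost the call when the library in brackets was left out, at the adjusted p given. Cbx7 (any iOL library, 0.083 to 0.25, and OPC Eed cKO 2, 0.053), Cbx2 (any iOL library, 0.054 to 0.30, and OPC Eed cKO 1 or 2, 0.057 to 0.062), Pcgf3 (any iOL library, 0.13 to 0.22, and OPC Eed cKO 1 or 2, 0.055 to 0.061) and Yaf2 (any iOL library, 0.11 to 0.19) did so too.

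In Eed cKO iOLs 959 genes rose, 7.08% of the 13549 tested, and 475 fell, 3.51%; at an unadjusted p under 0.05 the numbers were 1975 and 1167. The genes that rose were mostly weakly expressed in controls, with a median of 8.06 CPM, and the genes that fell were mostly abundant, with a median of 111 CPM. Rises were also larger: the median fold was 2.33 for rises and 1.76 for falls, with 606 rises and 170 falls over 2-fold, and 185 rises (1.37% of the genes tested) and 24 falls (0.177%) over 4-fold. Among the 737 genes under 1 CPM in controls 156 rose (21.2%) and 3 fell, and among the 2754 genes at 100 CPM or more 48 rose (1.74%) and 257 fell (9.33%). The table holds only genes with at least 1 read in every library, so genes silent in any library, whether control or Eed cKO, were not analysed here. Every gene also met a filter at a minimum count of 10 in some libraries. A gene nearly silent in controls could therefore be present only by being higher in another group. The control level also enters the log2 change, and a fall from under 1 CPM could hardly be called. The split of rises and falls by level is therefore partly set in advance. In all 1434 called genes, 10.6% of those tested, both Eed cKO libraries lay above or below both controls, as they also did in 33.6% (above) and 34.3% (below) of all genes. Fewer genes were called when any 1 of the 4 iOL libraries was left out, between 243 and 377 upward and between 81 and 176 downward, and 205 rises and 73 falls were called without each in turn. Beside the count of a gene list, above and below, the count in these 4 leave-out fits is given in brackets. Each list count is to be read against the 7.08% upward and 3.51% downward of all genes. Those shares themselves differ with the control level, as given above. The OPC libraries enter through the shared estimate of spread: without either of the first 2 OPC Eed cKO libraries 742 to 750 genes rose, and without either OPC control 1404 to 1408.

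**Figure D1:**
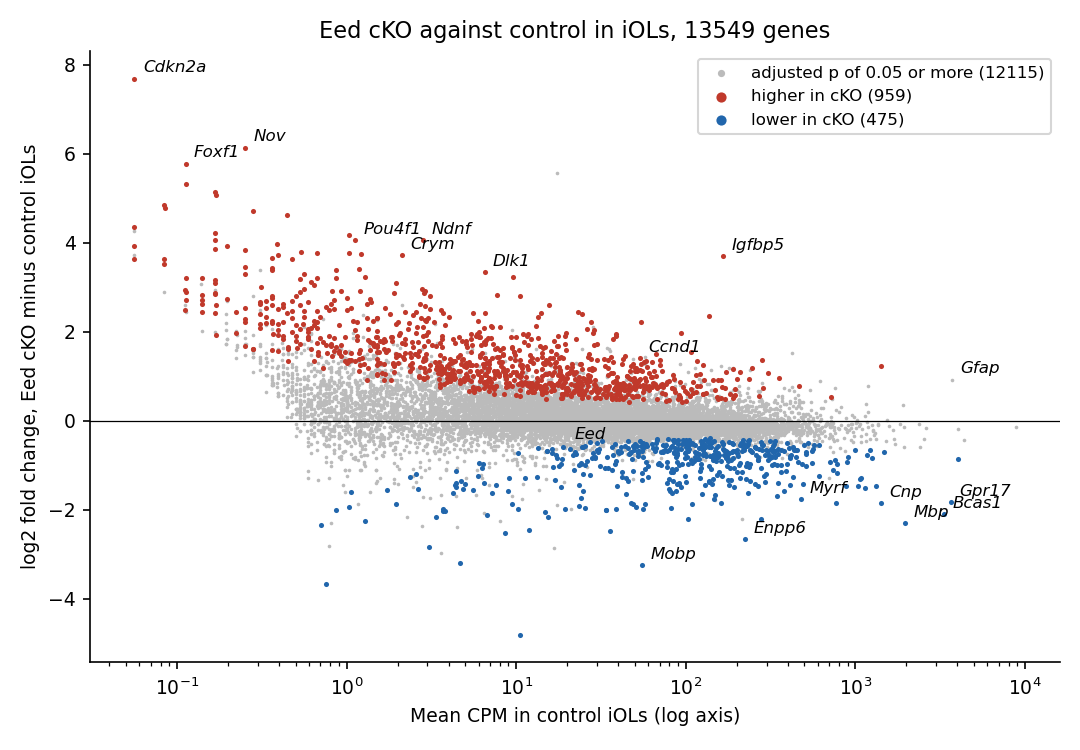
Mean level in the 2 control iOL libraries (CPM, log axis) against the log2 change in Eed cKO iOLs for the 13549 genes, with the 959 genes that rose in red, the 475 that fell in blue and the rest in grey. The red points crowd the upper left, at low control levels, and the blue points the abundant genes at the lower right. Gfap and Eed are labelled and were not called.

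The locus of p16 and p19ARF, Cdkn2a, which restrains the cell cycle and activates p53, had the largest rise in the table among genes of at least 5 CPM in the Eed cKO libraries. The 2 control libraries held 2 reads of it in all and the 2 Eed cKO libraries 488, or 0.0568 and 0.0555 CPM in controls and 12.1 and 13.7 CPM in Eed cKO libraries. The ratio of counts was 231, with an exact 95% counting interval of 63.5 to 1909. The neighbouring inhibitor gene Cdkn2b (p15) rose from 0.795 and 0.888 CPM to 4.42 and 5.29 CPM (log2 change of 2.52 ± 0.37, adjusted p = 0.0033). Of 7 inhibitor genes of cyclin-dependent kinases 3 rose (2 to 3) and 0 fell. The other that rose was Cdkn2c (p18), at 16.4 and 12.2 CPM in controls and 26.3 and 22.2 CPM in Eed cKO libraries (log2 change of 0.76 ± 0.17, adjusted p = 0.024). Cdkn1a (p21), a p53 target, was at 41.1 and 72.5 CPM in controls and 82.1 and 100.5 CPM in Eed cKO libraries and was not called (adjusted p = 0.14). Cdkn2c (iOL control 2 or Eed cKO 1 or 2, 0.063 to 0.18) lost the call when the library in brackets was left out, at the adjusted p given.

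No cell cycle gene on the list fell. Of 42 genes of the cell cycle and DNA replication 6 rose (1 in each) and 0 fell, and the median log2 change was 0.43, against -0.0036 over all genes. Both Eed cKO libraries lay above both controls for 39 of the 42, a pattern found in 33.6% of all genes, and 26 of the 42 were higher at an unadjusted p under 0.05. Ccnd1, which encodes cyclin D1, the G1 cyclin whose kinases p16 inhibits, was at 52.8 and 54.1 CPM in controls and 131 and 151 CPM in Eed cKO libraries, a 2.64-fold rise (log2 change of 1.40 ± 0.14, adjusted p = 0.00071). Ccnd2 (cyclin D2) was at 229 and 186 CPM in controls and 448 and 436 CPM in Eed cKO libraries. Its partner Cdk6 was at 24.6 and 24.0 CPM in controls and 35.9 and 37.9 CPM in Eed cKO libraries, and both rose (log2 changes of 1.09 and 0.60). Bub1b, a spindle checkpoint gene, and the replication genes Rrm2 and Mcm5 rose by 0.75, 0.57 and 0.53. Mki67, a marker of cycling cells, was at 114 and 99.6 CPM in controls and 176 and 146 CPM in Eed cKO libraries (adjusted p = 0.39; 0.0093 with the 4 iOL libraries alone). Ccnd2 (any iOL library, 0.12 to 0.20), Cdk6 (any iOL library, 0.14 to 0.18, and OPC Eed cKO 1, 0.054), Bub1b (any iOL library, 0.072 to 0.22, and OPC Eed cKO 1, 0.051) and Rrm2 (any iOL library, 0.071 to 0.28, and OPC Eed cKO 1 or 2, 0.057 to 0.069) lost the call when the library in brackets was left out, at the adjusted p given. Mcm5 (any iOL library, 0.063 to 0.30, and OPC Eed cKO 1 or 2, 0.067 to 0.072) did so too.

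Of 26 p53 target genes 5 rose (1 to 3) and 0 fell. The largest rise among them was that of Pmaip1, which encodes the apoptosis factor NOXA, at 1.48 and 2.44 CPM in controls and 15.2 and 18.2 CPM in Eed cKO libraries (log2 change of 3.09 ± 0.36, adjusted p = 0.0013). Btg2, an antiproliferative gene, rose from 11.9 and 15.2 CPM to 55.2 and 42.5 CPM (log2 change of 1.85). Plk2 and Sesn1, a kinase and a stress gene, rose by 0.90 and 0.59. Trp53 itself was at 102 and 96.9 CPM in controls and 115 and 104 CPM in Eed cKO libraries (adjusted p = 0.65). Among 20 measured genes of the secretion of senescent cells 7 rose (4 to 5) and 0 fell. Igfbp5, an IGF-binding protein gene, was at 144 and 189 CPM in controls and 1771 and 2521 CPM in Eed cKO libraries, a 12.9-fold rise (log2 change of 3.69 ± 0.49, adjusted p = 0.0022). Igfbp4 rose from 4.26 and 6.83 CPM to 28.1 and 31.6 CPM (log2 change of 2.43), and Cxcl12, a chemokine gene, from 1.19 and 1.39 CPM to 9.37 and 14.8 CPM (3.22). Igfbp6 and Igfbp7 were called too (adjusted p = 0.040 and 0.041), so several of the 7 were IGF-binding protein genes. However, Igfbp7 lost the call when any 1 iOL library was left out, and Igfbp6 without iOL control 1 or Eed cKO 1 or 2. Both also lost it without OPC Eed cKO 1 (adjusted p = 0.066 for Igfbp6 and 0.072 for Igfbp7) or OPC Eed cKO 2 (0.067 and 0.070). Over the alternative fits their log2 changes ran from 1.40 to 3.47 and from 0.72 to 0.998. DESeq2 did not call Igfbp6 (adjusted p = 0.066). Icam1, an adhesion receptor gene, was at 2.27 and 3.94 CPM in controls and 13.2 and 22.0 CPM in Eed cKO libraries (log2 change of 2.50 ± 0.34, adjusted p = 0.0025). Btg2 (iOL control 1 or 2 or Eed cKO 1, 0.067 to 0.13), Plk2 (iOL control 1 or 2 or Eed cKO 1, 0.064 to 0.11) and Sesn1 (any iOL library, 0.11 to 0.18) lost the call when the library in brackets was left out, at the adjusted p given.

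Of the 15 largest rises among genes of at least 5 CPM in the Eed cKO libraries 5 were of developmental transcription factors (Foxf1, Tbx15, Nkx6-1, Ebf3 and Pou4f1). Of 151 such genes 68 were in the table, and of these 37 rose (14 to 23) and 1 fell (0 in each), with a median log2 change of 1.16; the floor of the table bears on these weakly expressed genes. Foxf1, a forkhead gene of mesoderm, was at 0.114 and 0.111 CPM in controls and 5.43 and 7.56 CPM in Eed cKO libraries. Tbx15, a T-box gene of limb and skull mesenchyme, was at 0.114 and 0.222 CPM in controls and 5.53 and 6.72 CPM in Eed cKO libraries. Hmx1, a homeobox gene of sensory ganglia and eye, was at 0.170 and 0.0555 CPM in controls and 4.26 and 5.18 CPM in Eed cKO libraries. In each of the 3 the Eed cKO libraries lay far above every control, and the ratios of counts were 57.9 (95% counting interval 22.3 to 214), 36.4 (16.5 to 100.1) and 42.0 (16.1 to 156). Nkx6-1 was at 0.227 and 0.111 CPM in controls and 4.26 and 7.56 CPM in Eed cKO libraries (log2 change of 5.08). Ebf3, an early B-cell factor gene, was at 0.341 and 0.555 CPM in controls and 10.7 and 11.6 CPM in Eed cKO libraries (4.61). Pou4f1 was at 1.19 and 1.05 CPM in controls and 16.0 and 21.4 CPM in Eed cKO libraries (4.05). In these as well no Eed cKO library came near a control, and the adjusted p-values of the 6 were between 0.00021 and 0.0007.

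Genes of the Hox clusters, which pattern the body axis and are the classical targets of Polycomb silencing, were also higher. Of 39 Hox genes 10 were in the table, all 10 had Eed cKO libraries above both controls, 6 were called upward (2 to 3) and 0 downward, and the median log2 change was 2.07. The 10 genes summed to only 4.71 and 5.11 CPM in the controls. Members nearly silent in controls could be in the table only through libraries where they were higher. Their shared direction and median change were therefore partly set by which genes could enter the table. Hoxb6 was at 0.0568 and 0.0555 CPM in controls and 1.33 and 1.22 CPM in Eed cKO libraries, or 2 reads against 48 (ratio 22.7, 95% counting interval 5.94 to 193). Hoxa5 was at 0.284 and 0.111 CPM in controls and 2.87 and 3.33 CPM in Eed cKO libraries, and its groups lay far apart as well. Hoxa3 was at 1.53 and 1.78 CPM in controls and 5.06 and 5.08 CPM in Eed cKO libraries (log2 change of 1.61 ± 0.41, adjusted p = 0.038), and Hoxb3, Hoxb4 and Hoxb5 rose by 2.08, 2.50 and 3.62. Hoxa3 (any iOL library, 0.15 to 0.23, and OPC Eed cKO 1, 0.065), Hoxb3 (any iOL library, 0.066 to 0.13), Hoxb4 (iOL control 1 or 2 or Eed cKO 2, 0.088 to 0.10) and Hoxb5 (any iOL library, 0.078 to 0.16) lost the call when the library in brackets was left out, at the adjusted p given.

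**Figure D2:**
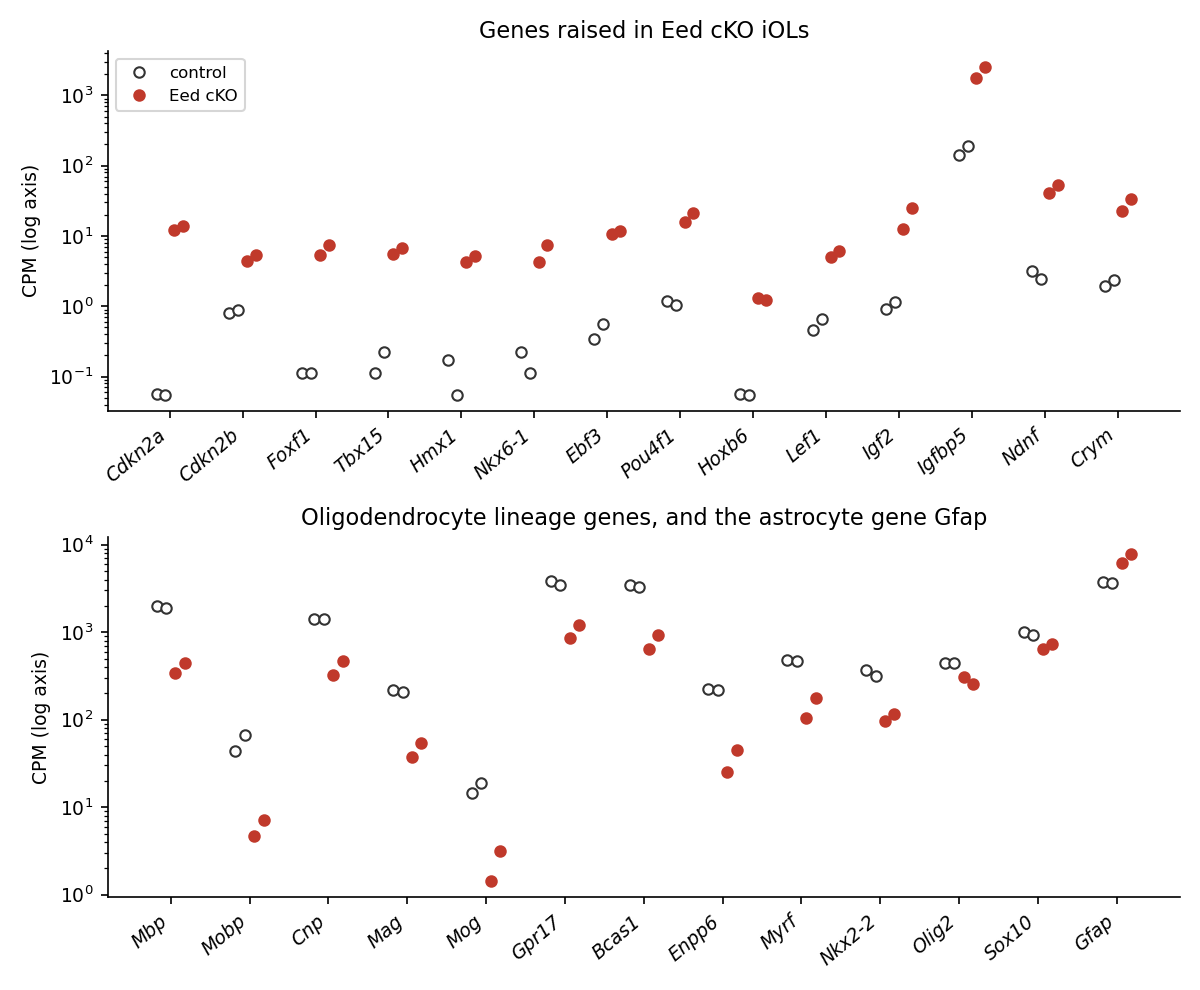
Level in each iOL library (CPM, log axis), open circles for the 2 control and filled circles for the 2 Eed cKO libraries, for 14 genes that rose (top) and for 12 oligodendrocyte lineage genes and the astrocyte gene Gfap (bottom). The groups do not overlap for any gene shown; Mag, Mog, Sox10 and Gfap were not called.

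Other large rises were in secreted and signalling genes. Nov, which encodes the matricellular protein CCN3, was at 0.170 and 0.333 CPM in controls and 11.8 and 24.6 CPM in Eed cKO libraries (log2 change of 6.13 ± 0.78, adjusted p = 0.0018), with a wide spread within each group. Smoc2, a secreted calcium-binding protein gene, rose from 0.170 and 0.611 CPM to 4.95 and 7.51 CPM (log2 change of 3.96), and Ndnf, a secreted neurotrophic factor gene, from 3.18 and 2.44 CPM to 40.3 and 52.8 CPM (4.05). She, an adaptor protein gene, Irs4, an insulin receptor substrate gene, Islr2, an axonal membrane protein gene, and Fgd5, an exchange factor gene of endothelial cells, rose by 4.71, 3.76, 3.73 and 3.79. The adjusted p-values of these 7 genes were between 0.00053 and 0.0018, and each kept its call without any 1 of the 9 libraries.

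Many genes of myelin fell. Of 30 myelin genes 13 fell (5 to 8) and 1 rose, with a median log2 change of -1.29, and the summed level of the list was 13705 and 13302 CPM in the controls and 6392 and 7956 CPM in the Eed cKO libraries. Mbp, the gene of myelin basic protein, was at 2015 and 1913 CPM in controls and 345 and 447 CPM in Eed cKO libraries, 4.96-fold lower in Eed cKO iOLs (log2 change of -2.31 ± 0.57, adjusted p = 0.031). Cnp, which encodes a myelin phosphodiesterase, was at 1432 and 1409 CPM in controls and 322 and 464 CPM in Eed cKO libraries (log2 change of -1.85 ± 0.26, adjusted p = 0.0028). Mobp was at 44.0 and 67.1 CPM in controls and 4.63 and 7.09 CPM in Eed cKO libraries (log2 change of -3.24 ± 0.70, adjusted p = 0.018), and in none of these did the groups overlap. Gjb1, the gene of the gap junction protein connexin 32, was at 3.75 and 5.55 CPM in controls and 0.479 and 0.529 CPM in Eed cKO libraries, 9.12-fold lower (log2 change of -3.19). Fa2h, which makes the hydroxylated fatty acids of myelin, and Omg, a myelin glycoprotein gene, fell, with log2 changes of -1.87 and -1.29. Sirt2, a deacetylase gene of myelin, was at 1376 and 1258 CPM in controls and 421 and 528 CPM in Eed cKO libraries (log2 change of -1.47 ± 0.21, adjusted p = 0.0028). The member that rose was Cntn2, an adhesion gene of the juxtaparanode, from 17.0 and 22.7 CPM to 36.9 and 44.8 CPM (log2 change of 1.04). Mbp (any iOL library, 0.10 to 0.21, and OPC Eed cKO 1, 0.054), Mobp (any iOL library, 0.057 to 0.15) and Cntn2 (iOL control 1 or Eed cKO 2, 0.066 to 0.083) lost the call when the library in brackets was left out, at the adjusted p given.

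Further myelin genes were lower in both Eed cKO libraries without passing the test. Mag, the gene of myelin-associated glycoprotein, was at 221 and 206 CPM in controls and 37.6 and 54.7 CPM in Eed cKO libraries (log2 change of -2.21 ± 0.77, adjusted p = 0.11). Mog, the gene of a late surface protein, was at 14.5 and 18.9 CPM in controls and 1.44 and 3.12 CPM in Eed cKO libraries (log2 change of -2.87 ± 0.88, adjusted p = 0.071). The groups did not overlap for either gene. With the spread of the 4 iOL libraries alone the adjusted p-values were 0.00076 for Mag and 0.0023 for Mog.

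The genes of committed and newly formed oligodendrocytes had the highest share of falls among the 40 gene lists: 17 of 26 fell (10 to 14) and 1 rose (0 to 1), with a median log2 change of -1.04. Gpr17, the receptor gene of the committed state, was at 3819.8 and 3508 CPM in controls and 869 and 1201 CPM in Eed cKO libraries. Bcas1, a marker of newly forming myelin, was at 3430.2 and 3273 CPM in controls and 643 and 921 CPM in Eed cKO libraries. Enpp6 was at 226 and 219 CPM in controls and 25.2 and 45.3 CPM in Eed cKO libraries (log2 change of -2.66 ± 0.55, adjusted p = 0.016). For Gpr17 and Bcas1 the log2 changes were -1.82 and -2.10 (adjusted p = 0.0012 and 0.0041), and every control lay far above both Eed cKO libraries. Fyn, a kinase gene of early myelination, fell from 1146 and 1020.5 CPM to 409 and 474 CPM (log2 change of -1.29), and Cnksr3, Mpzl1 and Lims2, genes of signalling and adhesion proteins, fell, with log2 changes of -1.42, -0.98 and -1.39. The member that rose was Tmem2, a membrane protein gene, from 24.6 and 28.0 CPM to 46.2 and 43.8 CPM (log2 change of 0.77). Bcas1 (iOL Eed cKO 1, 0.052), Enpp6 (any iOL library, 0.063 to 0.15) and Tmem2 (iOL control 1 or Eed cKO 1, 0.069 to 0.096) lost the call when the library in brackets was left out, at the adjusted p given.

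Transcription factors of the lineage were divided: of 33 genes 7 fell (3 to 4) and 3 rose (1 to 2). Myrf, the membrane-bound factor that activates myelin genes, was at 485 and 469 CPM in controls and 105 and 177 CPM in Eed cKO libraries (log2 change of -1.76 ± 0.30, adjusted p = 0.0066). Nkx2-2, a homeobox gene of differentiating cells, was at 373 and 317 CPM in controls and 97.6 and 117 CPM in Eed cKO libraries (log2 change of -1.68 ± 0.25, adjusted p = 0.0038). Zfp488, a co-regulator of Olig2, was at 187 and 174 CPM in controls and 57.4 and 74.9 CPM in Eed cKO libraries (log2 change of -1.45 ± 0.17, adjusted p = 0.0015). Olig2 fell from 444 and 448 CPM to 305 and 257 CPM (log2 change of -0.67), and Tcf7l2, a Wnt effector that marks newly formed oligodendrocytes, and Sox8 fell as well, with log2 changes of -1.09 and -0.77. The founding factors Sox10 and Olig1 did not pass the test: Sox10 was at 1009.6 and 924 CPM in controls and 639 and 742 CPM in Eed cKO libraries (adjusted p = 0.11). Olig1 was at 769 and 702 CPM in controls and 798 and 612 CPM in Eed cKO libraries, with overlapping groups. Nfia, a gliogenic factor, rose from 86.9 and 82.3 CPM to 175 and 170.2 CPM (log2 change of 1.03 ± 0.18, adjusted p = 0.0072). Myrf (iOL Eed cKO 1, 0.058), Olig2 (any iOL library, 0.084 to 0.20), Tcf7l2 (any iOL library, 0.062 to 0.12) and Sox8 (iOL control 1 or Eed cKO 2, 0.071 to 0.072) lost the call when the library in brackets was left out, at the adjusted p given. Nfia (iOL control 1 or 2 or Eed cKO 1, 0.055 to 0.065) did so too.

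Precursor genes gave no common direction, with 5 of 29 rising (2 in each) and 4 falling (2 in each). Pdgfra, the PDGF receptor gene that defines OPCs, was at 597 and 497 CPM in controls and 821 and 635 CPM in Eed cKO libraries (adjusted p = 0.30), while Cspg4, the NG2 proteoglycan gene, rose from 74.1 and 91.0 CPM to 119.6 and 154 CPM (log2 change of 0.73). Cspg5, a neural proteoglycan gene, and Rlbp1, which encodes a retinal-binding protein, rose by 0.94 and 1.23, and Neu4, a sialidase gene, fell, with a log2 change of -1.95. Of 37 genes of cholesterol and fatty acid synthesis, pathways that supply myelin lipid, 9 fell (0 to 2) and 0 rose, with a median log2 change of -0.45. Hmgcs1, the gene of HMG-CoA synthase, was at 1421 and 1528 CPM in controls and 864 and 938 CPM in Eed cKO libraries (log2 change of -0.71 ± 0.16, adjusted p = 0.022). The fatty acid elongase gene Elovl7 was at 87.6 and 88.2 CPM in controls and 24.0 and 34.7 CPM in Eed cKO libraries (log2 change of -1.58 ± 0.31, adjusted p = 0.012). Of 21 genes that respond to thyroid hormone, the differentiation signal of this culture, 4 rose (2 to 3) and 2 fell (0 in each); the receptor gene Thra was at 496 and 494 CPM in controls and 319 and 356 CPM in Eed cKO libraries (log2 change of -0.55 ± 0.14, adjusted p = 0.032) and its partner Rxra rose by 0.73. Cspg4 (any iOL library, 0.086 to 0.35, and OPC Eed cKO 1 or 2, 0.071 to 0.076), Cspg5 (any iOL library, 0.051 to 0.089), Hmgcs1 (any iOL library, 0.10 to 0.18) and Elovl7 (iOL control 1 or 2 or Eed cKO 1, 0.063 to 0.12) lost the call when the library in brackets was left out, at the adjusted p given. Thra (any iOL library, 0.11 to 0.25, and OPC Eed cKO 1 or 2, 0.061 to 0.066) and Rxra (any iOL library, 0.067 to 0.094) did so too.

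**Figure D3:**
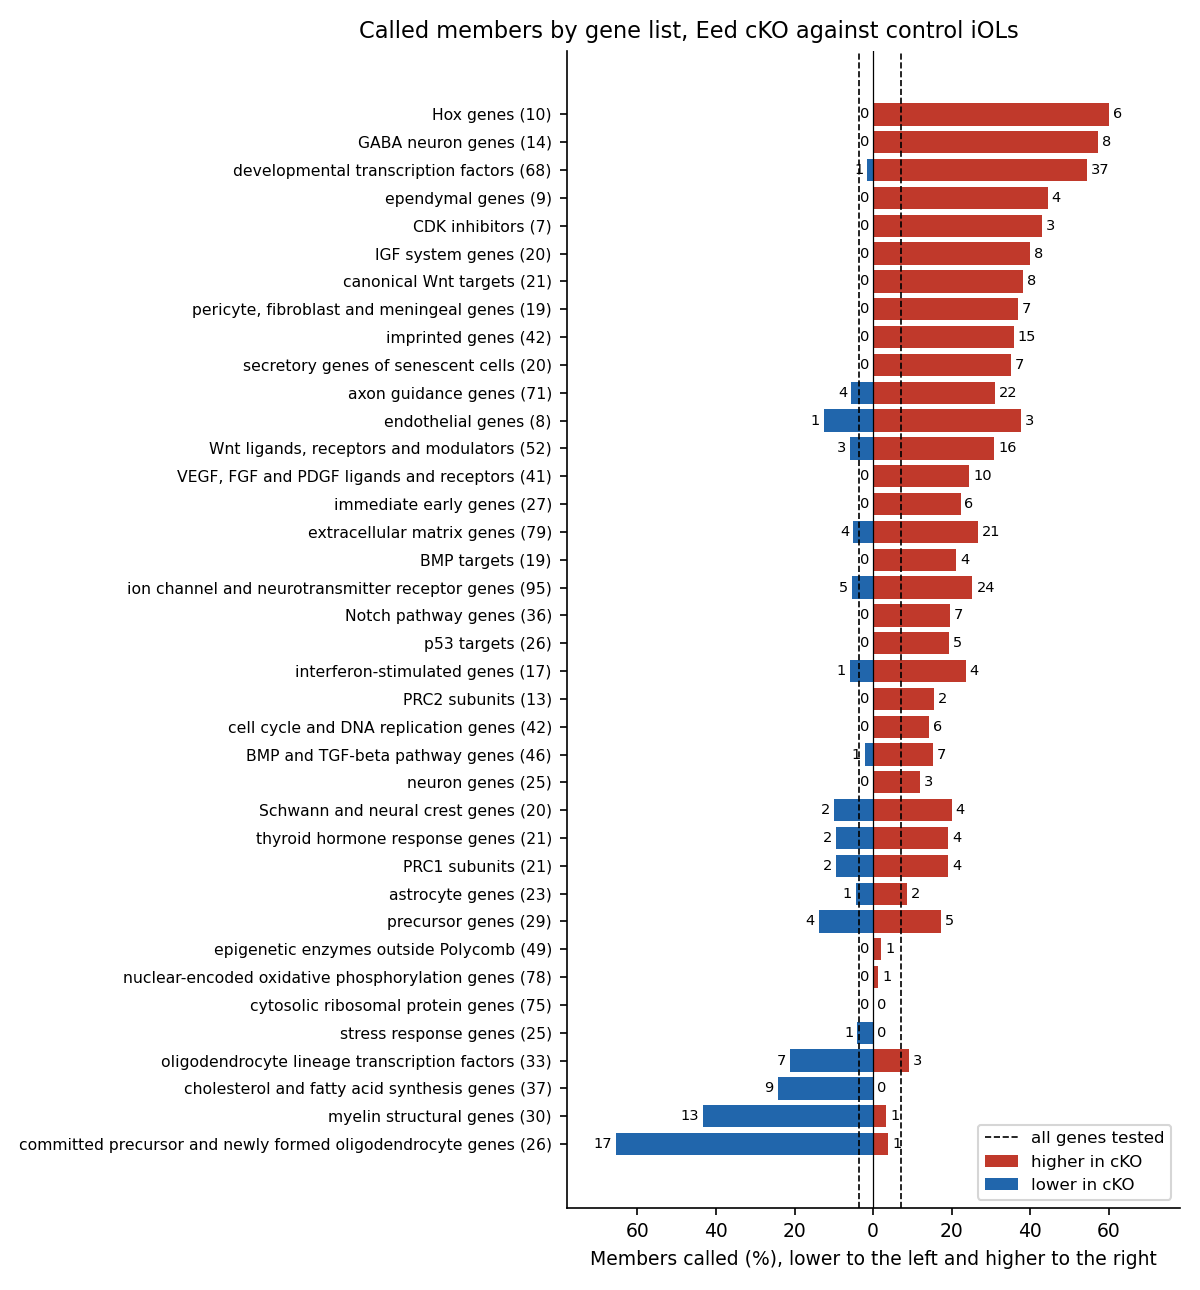
Share of the measured members of each gene list that rose (red, to the right) or fell (blue, to the left) in Eed cKO iOLs, with the number of members called beside each bar, the number measured in brackets and lists of at least 5 measured genes shown. Dashed lines mark the shares over all genes, 7.08% upward and 3.51% downward; Hox genes, GABA neuron genes and developmental transcription factors lie at the top and the committed and newly formed oligodendrocyte genes at the bottom.

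Beyond the lineage lists, the 15 largest falls included genes of other roles. Myo7a, an unconventional myosin gene, was at 10.4 and 13.4 CPM in controls and 1.76 and 2.59 CPM in Eed cKO libraries (log2 change of -2.45 ± 0.35, adjusted p = 0.0031). Ppp1r16b, a phosphatase regulator gene, was at 285 and 271 CPM in controls and 45.9 and 74.2 CPM in Eed cKO libraries (log2 change of -2.21 ± 0.23, adjusted p = 0.00084). Fam163a was at 34.2 and 33.9 CPM in controls and 6.39 and 10.4 CPM in Eed cKO libraries (log2 change of -2.02 ± 0.24, adjusted p = 0.0014). Cbln2, a synapse organiser gene, and Gng4, a G protein subunit gene, fell, with log2 changes of -2.49 and -2.21. The largest fall among genes of at least 5 CPM in controls was that of Eif3j2, a translation factor gene with a near-identical copy, from 13.9 and 7.33 CPM to 0.585 and 0.159 CPM (adjusted p = 0.035); its reads may be split with the copy, so its value is uncertain. Cbln2 (iOL Eed cKO 1, 0.053), Gng4 (iOL Eed cKO 1, 0.052) and Eif3j2 (any iOL library, 0.076 to 0.23, and OPC Eed cKO 1 or 2, 0.051 to 0.054) lost the call when the library in brackets was left out, at the adjusted p given.

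Among genes of Wnt signalling more rose than fell. Of 21 canonical Wnt targets 8 rose (4 to 6) and 0 fell, with a median log2 change of 0.59. Lef1, a nuclear effector that is itself a target, was at 0.454 and 0.666 CPM in controls and 5.0 and 6.19 CPM in Eed cKO libraries (log2 change of 3.30 ± 0.27, adjusted p = 0.00040). The feedback genes Rnf43 and Nkd1 were called as well: Rnf43, a ubiquitin ligase gene, was at 5.96 and 6.50 CPM in controls and 13.3 and 13.6 CPM in Eed cKO libraries (log2 change of 1.11 ± 0.14, adjusted p = 0.0015), and Nkd1 rose by 0.81. Axin2, the most widely used target, was at 39.6 and 38.6 CPM in controls and 51.2 and 43.0 CPM in Eed cKO libraries (adjusted p = 0.53). Of 52 ligands, receptors and modulators 16 rose (5 to 9) and 3 fell (1 to 2). The ligand gene Wnt7b was at 22.3 and 20.6 CPM in controls and 48.0 and 51.1 CPM in Eed cKO libraries (log2 change of 1.21 ± 0.15, adjusted p = 0.0017). Another ligand gene, Wnt2b, was at 0.738 and 0.777 CPM in controls and 3.94 and 4.97 CPM in Eed cKO libraries (log2 change of 2.54 ± 0.32, adjusted p = 0.0018), and the receptor gene Ror2 rose by 1.33. The secreted inhibitor gene Sfrp2 was at 0.795 and 0.833 CPM in controls and 5.64 and 4.49 CPM in Eed cKO libraries (log2 change of 2.63 ± 0.21, adjusted p = 0.00041). Of the Groucho co-repressors, Tle2 was at 41.9 and 47.4 CPM in controls and 18.7 and 17.9 CPM in Eed cKO libraries (log2 change of -1.28). Tle3 was at 129 and 113 CPM in controls and 257 and 247 CPM in Eed cKO libraries (1.06), so these relatives moved in opposite directions (adjusted p = 0.00082 and 0.0013). Nkd1 (iOL control 2, 0.0505) lost the call when the library in brackets was left out, at the adjusted p given.

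In the BMP and TGF-beta pathway 7 of 46 genes rose (0 to 2) and 1 fell (0 to 1). The gene that fell was the ligand Bmp4, at 80.5 and 80.7 CPM in controls and 19.5 and 34.6 CPM in Eed cKO libraries (log2 change of -1.58 ± 0.34, adjusted p = 0.019), and the receptor-regulated effector Smad1 rose by 0.74, the activin receptor gene Acvr1b by 0.65 and the activin subunit gene Inhbb by 1.47. Of 19 BMP targets 4 rose (1 to 2), among them the homeobox gene Msx1, at 1.08 and 0.944 CPM in controls and 6.01 and 5.29 CPM in Eed cKO libraries (log2 change of 2.47 ± 0.33, adjusted p = 0.0023); the inhibitors of differentiation Id2 and Id4 had log2 changes of 0.38 and 0.36 (adjusted p = 0.65 and 0.34). In the Notch pathway 7 of 36 genes rose (1 to 3) and 0 fell. The non-canonical ligand gene Dlk1, which is also imprinted, was at 6.59 and 6.44 CPM in controls and 54.0 and 77.8 CPM in Eed cKO libraries (log2 change of 3.34 ± 0.21, adjusted p = 0.00021). The Notch inhibitor gene Numb was at 24.9 and 26.5 CPM in controls and 46.7 and 47.2 CPM in Eed cKO libraries (log2 change of 0.87 ± 0.13, adjusted p = 0.0032). The receptor gene Notch1 and the target gene Hes5 were not called (log2 changes of 0.39 and -0.02), while Nrarp, another target, rose by 1.27. The shares upward were 15.2% of the BMP and TGF-beta pathway, 21.1% of the BMP targets and 19.4% of the Notch pathway. Over all genes the share was 7.08% upward, and 3.51% downward against 2.17% of the BMP and TGF-beta pathway. Bmp4 (iOL control 1 or 2 or Eed cKO 1, 0.083 to 0.15), Smad1 (iOL control 1 or 2, 0.056 to 0.062), Acvr1b (iOL control 1 or 2 or Eed cKO 2, 0.084 to 0.086) and Inhbb (any iOL library, 0.071 to 0.13) lost the call when the library in brackets was left out, at the adjusted p given. Numb (iOL control 1, 0.053) and Nrarp (any iOL library, 0.064 to 0.098) did so too.

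Of 20 genes of the insulin-like growth factor system 8 rose (6 to 7) and 0 fell, with a median log2 change of 0.74. The ligand gene Igf2 was at 0.909 and 1.17 CPM in controls and 12.8 and 25.1 CPM in Eed cKO libraries (log2 change of 4.18 ± 0.47, adjusted p = 0.0012). Igf2bp1 and Igf2bp3 encode proteins that bind its mRNA. Igf2bp1 rose from 0.568 and 0.777 CPM to 8.73 and 9.68 CPM (log2 change of 3.76) and Igf2bp3 from 14.8 and 19.9 CPM to 65.5 and 46.1 CPM (1.68). Pappa2, a protease gene that cleaves IGF-binding proteins, rose from 0.170 and 0.555 CPM to 4.20 and 3.75 CPM (3.42). Of 41 ligands and receptors of the VEGF, FGF and PDGF families 10 rose (3 to 8) and 0 fell. The VEGF receptor gene Kdr was at 39.8 and 34.8 CPM in controls and 85.8 and 101 CPM in Eed cKO libraries (log2 change of 1.32 ± 0.20, adjusted p = 0.0040). The co-receptor gene Nrp2 was at 35.7 and 36.5 CPM in controls and 104 and 92.3 CPM in Eed cKO libraries (log2 change of 1.44 ± 0.13, adjusted p = 0.00058). The mitogen gene Fgf2 was at 16.1 and 19 CPM in controls and 34.6 and 77.1 CPM in Eed cKO libraries (log2 change of 1.67 ± 0.33, adjusted p = 0.014), with 1 Eed cKO library more than 2 times the other. Kdr (iOL control 2, 0.0502) and Fgf2 (iOL control 1 or 2 or Eed cKO 2, 0.073 to 0.12) lost the call when the library in brackets was left out, at the adjusted p given.

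Imprinted genes, which are expressed from the allele of a single parent, rose in 15 of 42 cases (6 to 7) and fell in 0. Besides Dlk1 and Igf2, Asb4 was at 10.8 and 10.3 CPM in controls and 64.4 and 83.0 CPM in Eed cKO libraries (log2 change of 2.80 ± 0.19, adjusted p = 0.00021). Rasgrf1, an exchange factor gene of Ras, was at 0.511 and 0.611 CPM in controls and 3.51 and 5.23 CPM in Eed cKO libraries (log2 change of 2.95 ± 0.29, adjusted p = 0.00071). The growth inhibitor gene Grb10 was at 13.3 and 23.5 CPM in controls and 53.1 and 46.1 CPM in Eed cKO libraries (log2 change of 1.43 ± 0.23, adjusted p = 0.0053).

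Upward calls made up 57.1% of the measured genes of GABA neurons and 12% of the general neuron genes, against 7.08% of all genes. By calls alone the general neuron genes stood near the share over all genes. Their median log2 change was 0.58, against -0.0036 over all genes. Both Eed cKO libraries lay above both controls for 17 of the 25, against 33.6% of all genes, and below both for 3. At an unadjusted p under 0.05, 12 of the 25 were higher and 0 lower. With the 4 iOL libraries alone 12 were called upward and 2 downward. Of 14 genes of GABA neurons 8 rose (3 to 5) and 0 fell, with a median log2 change of 1.57. Only 14 of the 20 genes listed were in the table, and members nearly silent in controls could enter it only through libraries where they were higher. The share and the median were therefore partly set by which genes could enter. Of all genes under 1 CPM in controls, 21.2% rose. The interneuron factor gene Sp8 rose from 0.170 and 0.167 CPM to 2.29 and 2.80 CPM (log2 change of 3.86) and Dlx1 from 1.87 and 1.83 CPM to 8.99 and 4.76 CPM (1.89). Npy, the neuropeptide Y gene, was at 0.511 and 0.444 CPM in controls and 7.13 and 4.92 CPM in Eed cKO libraries (log2 change of 3.64 ± 0.49, adjusted p = 0.0022). Gad2, which encodes an enzyme of GABA synthesis, was at 5.40 and 5.66 CPM in controls and 10.3 and 11.8 CPM in Eed cKO libraries (log2 change of 1.0 ± 0.19, adjusted p = 0.012). Of 25 general neuron genes 3 rose (0 to 1), among them Nefl, a neurofilament gene, at 8.52 and 7.38 CPM in controls and 17.2 and 14.9 CPM in Eed cKO libraries (log2 change of 1.01 ± 0.19, adjusted p = 0.012); the summed level of that list was 2097 to 2233 CPM in the controls and 2169 to 2205 CPM in the Eed cKO libraries. Dlx1 (iOL control 1 or 2 or Eed cKO 1, 0.060 to 0.069), Gad2 (any iOL library, 0.05003 to 0.11) and Nefl (iOL control 1 or 2 or Eed cKO 1, 0.068 to 0.099) lost the call when the library in brackets was left out, at the adjusted p given.

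Of 71 axon guidance genes 22 rose (9 to 14) and 4 fell (1 to 2). The repellent gene Slit1 rose from 3.07 and 3.50 CPM to 17.7 and 13.0 CPM (log2 change of 2.22) and Slit2 from 17.3 and 20.4 CPM to 47.6 and 52.8 CPM (1.41). The semaphorin receptor gene Plxnd1 was at 41.6 and 45.5 CPM in controls and 108 and 129.7 CPM in Eed cKO libraries (log2 change of 1.45 ± 0.15, adjusted p = 0.00088). Plxnb3, the plexin gene of oligodendrocytes, fell from 796 and 749.8 CPM to 179 and 247 CPM (log2 change of -1.86 ± 0.21, adjusted p = 0.0011), and Ephb2, an ephrin receptor gene, rose by 1.03. Of 95 ion channel and neurotransmitter receptor genes 24 rose (6 to 12) and 5 fell (0 to 1). The kainate receptor gene Grik1 was at 6.76 and 5.66 CPM in controls and 21.8 and 18.8 CPM in Eed cKO libraries (log2 change of 1.71 ± 0.16, adjusted p = 0.00065). The calcium channel subunit gene Cacna2d1 was at 12.5 and 10.7 CPM in controls and 43.2 and 42.7 CPM in Eed cKO libraries (log2 change of 1.89 ± 0.23, adjusted p = 0.0015). Chrna4, Cacna1g, Kcnc1 and Kcnk10, genes of a nicotinic receptor, a T-type calcium channel and 2 potassium channels, rose by 0.96, 1.30, 1.22 and 1.05.

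Of 79 extracellular matrix genes 21 rose (8 to 17) and 4 fell (0 to 2). Fbln5 and Eln are genes of elastic fibres. Fbln5 rose from 94.1 and 94.5 CPM to 302 and 435 CPM (log2 change of 1.97 ± 0.19, adjusted p = 0.00064) and Eln from 16.3 and 15.8 CPM to 44.0 and 50.8 CPM (log2 change of 1.56 ± 0.13, adjusted p = 0.00044). Matn2, a matrilin gene, and the collagen gene Col27a1 rose by 1.35 and 1.20. Of 19 genes of pericytes, fibroblasts and meninges 7 rose (5 to 6), among them Cspg4 and Igf2, whose levels are given above. Tbx18, a T-box gene of mural cells, was at 0.170 and 0.167 CPM in controls and 3.03 and 3.44 CPM in Eed cKO libraries. Aldh1a2, a retinoic acid synthesis gene, was at 0.0568 and 0.111 CPM in controls and 2.18 and 3.01 CPM in Eed cKO libraries. The summed level of that list was 496 and 705 CPM in the controls and 510 and 721 CPM in the Eed cKO libraries, so the sums overlapped. Of 8 endothelial genes 3 rose (0 to 3) and 1 fell (0 to 1), Kdr among the rises, and of 9 ependymal genes 4 rose (0 to 3). Of 20 genes of Schwann cells and neural crest 4 rose (1 to 3) and 2 fell (1 to 2); the neuregulin receptor gene Erbb3 was at 14.1 and 14.0 CPM in controls and 58.5 and 91.9 CPM in Eed cKO libraries (log2 change of 2.42 ± 0.21, adjusted p = 0.00053), and S100b fell from 402 and 352 CPM to 96.7 and 156 CPM (log2 change of -1.58 ± 0.25, adjusted p = 0.0047).

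Of 23 astrocyte genes 2 rose (1 in each) and 1 fell (1 in each), with a median log2 change of 0.45, and the summed level was 12576 and 12239 CPM in the controls and 16588 and 18824 CPM in the Eed cKO libraries. With the 4 iOL libraries alone 12 of the 23 were called upward, among them Gfap (adjusted p = 0.0033), and 1 downward. The member that fell was S100b, which oligodendrocyte-lineage cells express as well. The water channel gene Aqp4 was at 811 and 1142 CPM in controls and 934 and 1134 CPM in Eed cKO libraries, with overlapping groups. The part of this shift in the falls of the oligodendrocyte genes and in the rises of genes that astrocytes also express, such as Sox9 (0.54), was not tested. Sox9 (any iOL library, 0.082 to 0.34, and OPC Eed cKO 1 or 2, 0.063 to 0.075) lost the call when the library in brackets was left out, at the adjusted p given.

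Of 27 immediate early genes 6 rose (1 to 3), or 14 with the 4 iOL libraries alone, and 0 fell, a share of 22.2% upward against 7.08% of all genes. Egr3, the gene of a zinc finger factor, was at 0.568 and 0.777 CPM in controls and 3.35 and 2.96 CPM in Eed cKO libraries (log2 change of 2.22 ± 0.27, adjusted p = 0.0016), and of 17 interferon-stimulated genes 4 rose (0 to 1), or 23.5%, and 1 fell (0 to 1). The remaining lists had few calls. Of 25 stress response genes 0 rose and 1 fell (0 in each), of 49 epigenetic enzymes outside Polycomb 1 rose (0 to 1) and 0 fell, and 0 of 3 measured microglia genes was called. The histone H3 lysine 27 demethylase genes Kdm6a and Kdm6b had log2 changes of 0.12 and -0.18 (adjusted p = 0.85 and 0.61). Of 75 ribosomal protein genes 0 were called by edgeR or DESeq2 in either direction, and with edgeR also 0 at an unadjusted p under 0.05; with the 4 iOL libraries alone 10 were called downward. Their median log2 change was -0.17, and both Eed cKO libraries lay below both controls for 66 of the 75, against 34.3% of all genes. The red blood cell list had 1 measured gene, which was not called. Of 78 nuclear genes of oxidative phosphorylation 1 rose (0 in each) and 0 fell. With the 4 iOL libraries alone 12 of the 78 were called downward, and both Eed cKO libraries lay below both controls for 55 of the 78, against the 34.3% of all genes.

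Genes with a called change lay beside each other along the genome more often than genes at large. Of 958 rising genes with a position 215, or 22.4%, had a rising gene as the adjacent tested gene on either side, without overlap. The share was 12.7% of all 13521 genes with a position, the rising genes included. For falls the share was 64 of 475, or 13.5%, against 6.32%. These shares are descriptions, with no test.

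The effect in iOLs was set against that in OPCs by the interaction term of the same fit; the 2 comparisons share no library, but they share the estimate of spread. In OPCs 399 genes rose (2.94%) and 41 fell (0.303%). Of the 959 genes that rose in iOLs 223 also rose in OPCs, or 23.3% of these and 55.9% of the 399, and the median log2 change of the 959 was 1.22 in iOLs and 0.38 in OPCs. Of the 475 genes that fell in iOLs 17 fell in OPCs, or 3.58% of these and 41.5% of the 41, and the medians were -0.82 and -0.08. Both sets were chosen by their call in iOLs, so their iOL medians are descriptions of that choice. Greater and lesser give the sign of the log2 change in iOLs minus that in OPCs, not the size of the effect. The difference was called lesser for 84 of the 475 genes that fell in iOLs, and greater for 124 of the 959 that rose. Over all genes the difference between stages was called for 248 (1.83%), with a log2 change greater in iOLs for 128 (0.945%) and lesser for 120 (0.886%). Without each library in turn the first number ran from 0 to 1118 and the second from 2 to 1038, the lowest without iOL control 1 and the highest without OPC control 2, and each of the 9 libraries moved the first by over 1.5 times. The stages also differ in medium and days in culture, which cannot be told apart from the stage. Of the 5 OPC libraries 3, from both genotypes, came from postnatal day 7, and the OPC control and Eed cKO libraries of day 6 had a rank correlation of 0.990, above the 0.969 between the OPC controls. With the day as a term 676 differences were greater and 526 lesser in iOLs.

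Tle2 had the lowest adjusted p of the difference, with log2 changes of -1.28 in iOLs and 0.88 in OPCs, a difference of -2.17 ± 0.18 (adjusted p = 0.0064, and at most 0.045 under every alternative fit). Ndnf rose by 4.05 in iOLs and had a log2 change of 0.03 in OPCs (difference 4.02 ± 0.50, adjusted p = 0.011). The exchange factor gene Fgd5 rose by 3.79 in iOLs against 0.18 in OPCs (difference 3.61 ± 0.41, adjusted p = 0.011), and Crym, which encodes a thyroid hormone binding protein, by 3.71 against -0.46 (difference 4.17 ± 0.56, adjusted p = 0.015). Crym was at 1.93 and 2.33 CPM in controls and 22.3 and 33.7 CPM in Eed cKO libraries. The matrix gene Olfml3 and the complement-like gene C1ql1 rose by 2.62 and 1.96 in iOLs, with log2 changes of -0.02 and -0.79 in OPCs. In the other direction, C1qtnf1, a secreted complement-like gene, had a log2 change of 0.68 in iOLs (adjusted p = 0.066) against 4.21 in OPCs, and Col9a1, a collagen gene, of -0.38 against 1.88 (differences of -3.53 ± 0.37 and -2.26 ± 0.24, both at adjusted p = 0.011). Cdkn1a had 0.68 in iOLs and 2.65 in OPCs (difference -1.96 ± 0.37, adjusted p = 0.037), and Gad2 rose by 1.0 in iOLs and 2.55 in OPCs (difference -1.55 ± 0.27, adjusted p = 0.030). For Ndnf, Fgd5, Crym, C1qtnf1, Col9a1, Cdkn1a and Gad2 the highest adjusted p of the difference over 15 alternative fits was 0.072, 0.071, 0.091, 0.058, 0.058, 0.181 and 0.153, so each of these calls ended under at least 1 of them. For Cdkn2a, Pou4f1 and Igf2 the changes in OPCs were 6.04, 5.37 and 4.43, and the difference between stages was not called.

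**Figure D4:**
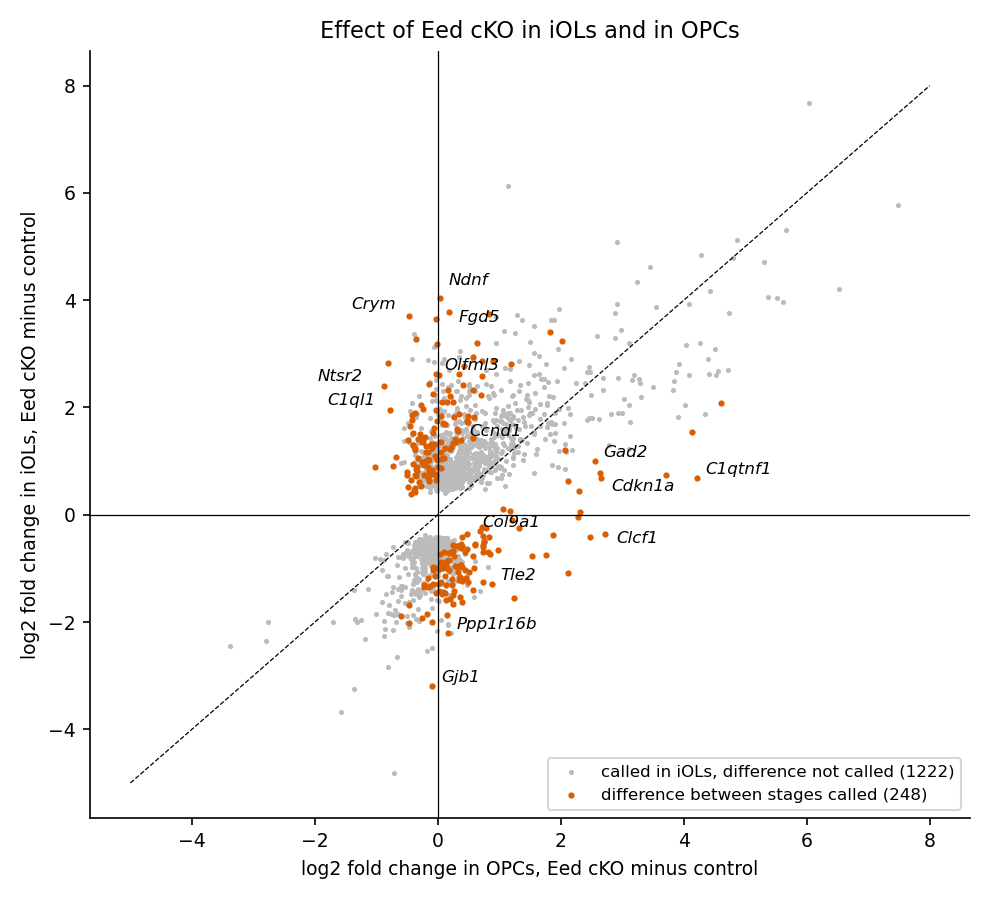
Log2 change in Eed cKO OPCs (horizontal) against that in Eed cKO iOLs (vertical) for genes called in iOLs (grey) and for the 248 genes whose difference between the stages was called (orange); the dashed line marks equal changes. Tle2 lies below 0 in iOLs and above 0 in OPCs, and C1qtnf1 and Clcf1 lie far to the right of the line.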

How the data were processed

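RNA counts of 9 libraries were used, 4 of iOLs and 5 of OPCs; the chromatin samples were not analysed here. The authors deposited whole-number counts of reads per gene, trimmed with cutadapt 1.14, aligned with STAR 2.6.0 and counted with featureCounts of Subread 1.6.2 on mm10, per the submitters' processing notes. Per the labels, libraries were made with a stranded poly-A kit or, for little RNA, a SMARTer kit, without a record of which library had which, so antisense genes were not named. A second header line among the rows was left out. Each of the 13549 genes has at least 1 count in every library.

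Counts were tested with edgeR 4.0.16 (limma 3.58.1, R 4.3.3): TMM factors, a filter at a minimum count of 10 that removed no gene, and a quasi-likelihood fit of 4 group means over all 9 libraries, with 5 residual degrees of freedom, and Benjamini-Hochberg adjustment. The difference between stages was the interaction contrast. Nothing in the labels says that replicates are separate animals or cultures, so p-values reflect only the spread among these samples, which may be technical. No pair of libraries of the same stage agreed within sampling noise. On 5 simulated data sets with 200 of 13549 genes changed, the test found 57.4% of 2-fold and 92.4% of 4-fold changes, and 6.0% of its calls were false. The simulated counts were drawn independently for each library with the spread fitted to all 9, which is the model the test assumes. The common dispersion was 0.0265 over all 9 libraries and 0.0073 in the 4 iOL libraries. These rates therefore describe the simulated data and need not hold for the real libraries.

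Genes named were the PRC2 core, the 15 largest changes each way with at least 5 CPM in the higher group, the 8 largest differences between stages each way, up to 6 called members of each of 40 gene lists, and a set of lineage, cell cycle and signalling genes; Xist and Tmem2 were added after their values were seen, and some genes under this rule are not reported here. Examples in the text favour genes that kept their call when single libraries were left out. The members and lists were chosen with earlier results of these data known. Alternatives were DESeq2 1.42.0, RLE factors, other filters, only the 4 iOL libraries, postnatal day or the replicate number as a term, and each library left out. Of the gene symbols 99.8% matched a RefSeq position, and promoters come from RefSeq (GRCm38.p6). Counting intervals cover counting error only.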

Additional observations from a re-analysis of the deposited data

Results flagged for a closer look

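For 47 of the named genes the effect of the Eed cKO differed between iOLs and OPCs by the interaction term of edgeR's quasi-likelihood test (adjusted p under 0.05), which is what marked them out. Each value in brackets below is the log2 change in iOLs minus that in OPCs.

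The following 29 genes rose in iOLs and were not called in OPCs: Ndnf (4.02), Fgd5 (3.61), Islr2 (2.91), Crym (4.17), Fxyd1 (3.63), Ntsr2 (3.28), C1ql1 (2.74), Olfml3 (2.65), Ccnd1 (1.03), Igfbp4 (2.01), Nfia (1.17), Cspg5 (1.35), Sema7a (1.11), Sfrp2 (2.29), Tle3 (0.97), Wnt7b (1.59), Smad1 (0.76), Mfng (2.33), Rasgrf1 (2.37), Eln (1.23), Fbln5 (2.21), Col26a1 (1.34), Matn2 (1.6), Pgf (1.66), Slit1 (1.53), Slit2 (1.13), Ephb2 (1.04), Grik1 (1.63) and Kcnk10 (1.37). Asb4 and Nrp2, which rose in both stages, rose more in iOLs, by differences of 1.61 and 0.87. A further 6 fell in iOLs and were not called in OPCs: Ppp1r16b (-2.38), Fam163a (-1.55), Gjb1 (-3.10), Fyn (-1.22), Cnksr3 (-1.43) and Zfp488 (-1.53). The following 7 rose in OPCs and were not called in iOLs: C1qtnf1 (-3.53), Clcf1 (-3.09), Crybg1 (-2.95), Slc24a2 (-2.51), Cpm (-2.31), Col9a1 (-2.26) and Cdkn1a (-1.96). Tle2 and Tle6 fell in iOLs and rose in OPCs, with differences of -2.17 and -2.79, and Gad2 rose in both stages but less in iOLs (-1.55).

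These differences rest on few libraries. Of the 47, Tle2 alone was called in all 15 alternative fits, C1qtnf1 and Col9a1 in 14, and Fam163a in 6, the lowest number. The OPCs were also kept in another medium, which cannot be told apart from the stage.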

How the results depend on the processing

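Scaling by RLE factors and the other filters kept the counts of genes within 1.5 times. With only the 4 iOL libraries 2147 genes rose and 1552 fell, and 1430 of the 1434 genes called in the report were called again in the same direction. With postnatal day as a term 1770 rose and 910 fell, and for the difference between stages 676 were greater and 526 lesser in iOLs. DESeq2 called 1202 rises and 640 falls, and 364 greater and 459 lesser differences. Leaving out 1 library gave 243 to 1408 rises and 81 to 831 falls, and 0 to 1118 greater and 2 to 1038 lesser differences; the causes were not tested.

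The replicate numbers of the iOL libraries are shared between the groups, but nothing says that they pair samples, and the deviations of same-numbered libraries correlated at 0.239 over 2 pairs. With the replicate number as a block in all 9 libraries 796 genes rose and 339 fell, and 45 differences were greater and 43 lesser in iOLs; with the block in the 4 iOL libraries alone 2617 rose and 1897 fell.

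Of the 223 named genes 194 were called, and all 194 kept their direction under each of the 17 alternatives. The call itself was lost by 75 to 95 of them without 1 iOL library, by 28 at most without 1 OPC library, by 26 under the block and by 2 with DESeq2, and 88 kept it throughout. Only genes that were not called changed sign, in 10 cases. The ranges over fits without 1 library were -0.51 to 0.31 for Cpm, -0.27 to 0.12 for Olig1, -0.14 to 0.35 for Aqp4, -0.20 to 0.14 for Hes5, -0.13 to 0.33 for Kdm6a and -4.76 to 10.52 for Xist. Genes under 1 CPM in the controls rest on few reads, so small changes in them were not detectable at this depth.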
